A study of Mus musculus with 24 samples.

Results

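The 10 genes described here encode secreted signals that attract and activate immune cells in fat: the CC chemokines Ccl2, Ccl7, Ccl8 and Ccl11, the CXC chemokines Cxcl1, Cxcl10 and Cxcl14, and the cytokines Tnf, Il6 and Il1b. They were chosen by name from the gene symbols of both count tables, and all 10 were found among the 38,013 gene identifiers that the tables share. The libraries are bulk mRNA of inguinal subcutaneous white adipose tissue from C57BL/6J mice with a transgenic γ1 subunit of AMPK (AMP-activated protein kinase), an enzyme switched on when cellular energy runs low. The subunit was wild type in WT-Tg mice and the gain-of-function D316A form in D316A-Tg mice, so the control mice were transgenic too. Tissue was taken at 16 weeks of age from mice on chow and at 24 weeks from mice on a diet of 45% fat (HFD, high-fat diet), and each of the 4 groups has 6 libraries. The promoter or Cre that drives the transgenes is not given in the sources used here. No label ties each library to its own animal, so the p-values reflect only how far these samples spread, which may be technical.

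Chemokines are small secreted proteins that guide leukocytes along a gradient by binding receptors on the cells they attract. Ccl2 and Ccl7 chiefly draw monocytes through receptors such as Ccr2, Ccl11 (eotaxin) draws eosinophils through Ccr3, Cxcl1 draws neutrophils through Cxcr2, and Cxcl10 draws activated T cells through Cxcr3. Tnf, Il6 and Il1b are inflammatory cytokines made by macrophages and other cells, and in obese fat of mice they are known to accompany the influx of macrophages and to act on adipocytes. Many of these genes are turned on through the transcription factor NF-κB, and Cxcl10 is also a classical interferon target.

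The 4 CC chemokine genes lie in a single run on chromosome 11 (GRCm38, GENCODE M21), all on the plus strand and in the order Ccl2 (82035571 to 82037453), Ccl7 (82045712 to 82047525), Ccl11 (82057823 to 82062955), Ccl12, which is not among the 10, and Ccl8 (82115185 to 82116799). The run spans 81.2 kb, and 8.3 kb separate Ccl2 from Ccl7. Cxcl1 (90891241 to 90893115, plus strand) and Cxcl10 (92346638 to 92348889, minus strand) lie on chromosome 5, as does Il6 (30013114 to 30019981, plus strand). Cxcl14 lies on chromosome 13 (56288643 to 56296551), Tnf on chromosome 17 (35199381 to 35202007) and Il1b on chromosome 2 (129364570 to 129371139), all 3 on the minus strand. The tables identify these genes as Ccl2 ENSMUSG00000035385, Ccl7 ENSMUSG00000035373, Ccl8 ENSMUSG00000009185, Ccl11 ENSMUSG00000020676, Cxcl1 ENSMUSG00000029380, Cxcl10 ENSMUSG00000034855, Cxcl14 ENSMUSG00000021508, Tnf ENSMUSG00000024401, Il6 ENSMUSG00000025746 and Il1b ENSMUSG00000027398. Exons of Art3 on the other strand cover 5.906% of the Cxcl10 exon length, and the antisense gene Il1bos covers 1.311% of that of Il1b. Whether counting used strand is not given in the sources used here, so these counts can hold reads of the partner gene.

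Promoter sequence is shown for the CXC chemokines, since Cxcl1 was the 1 gene of the 10 called between genotypes by edgeR and Cxcl10 and Cxcl14 are the other CXC chemokines among them. Each stretch is the 250 bases before the transcript start, 5′ to 3′ on the gene's strand, from RefSeq on GRCm38.p6. Capitals mark matches to the NF-κB consensus in Cxcl1 and Cxcl10 and to the interferon response motif (TTTC, any 2 bases, TTTC), read on either strand, in Cxcl10 and Cxcl14.
Cxcl1, chr5:90890995-90891244, plus strand: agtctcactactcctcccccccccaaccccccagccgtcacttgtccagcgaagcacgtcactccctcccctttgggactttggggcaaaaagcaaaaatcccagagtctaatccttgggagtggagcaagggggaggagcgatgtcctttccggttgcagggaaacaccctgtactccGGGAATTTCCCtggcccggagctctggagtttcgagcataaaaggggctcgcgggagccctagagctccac
Cxcl10, chr5:92348890-92349139, minus strand: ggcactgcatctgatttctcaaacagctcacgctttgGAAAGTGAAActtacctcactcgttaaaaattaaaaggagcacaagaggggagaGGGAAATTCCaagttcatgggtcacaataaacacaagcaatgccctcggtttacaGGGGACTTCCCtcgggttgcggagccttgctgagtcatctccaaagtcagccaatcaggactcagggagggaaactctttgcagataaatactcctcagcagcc
Cxcl14, chr13:56296552-56296801, minus strand: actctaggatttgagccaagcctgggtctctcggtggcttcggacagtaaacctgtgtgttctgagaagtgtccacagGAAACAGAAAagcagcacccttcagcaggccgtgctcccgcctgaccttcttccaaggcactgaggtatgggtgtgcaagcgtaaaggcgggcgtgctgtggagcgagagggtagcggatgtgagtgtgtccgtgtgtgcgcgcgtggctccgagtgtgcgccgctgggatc
The Cxcl1 window held an NF-κB match between 71 and 61 bases before the start. The Cxcl10 window held NF-κB matches in 2 stretches, 159 to 150 and 104 to 94 bases before the start, and an interferon motif from 213 to 204 bases. In the Cxcl14 window an interferon motif lay 172 to 163 bases before the start. Among 32,851 windows of the same length, 7.251% held an NF-κB match and 2.977% the interferon motif on either strand. These matches describe letters in the window and do not show that a factor binds there.

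Levels per exon length, as CPM per kilobase of exon (RPKM, where CPM is counts per 1e+06 counts of the library), were averaged over the 24 libraries to give an order, although the groups differ for some genes. From high to low it was Ccl8 (41.4 RPKM), Ccl11 (31.9), Cxcl14 (20.7), Ccl7 (5.32), Ccl2 (4.45), Tnf (1.87), Cxcl10 (1.51), Cxcl1 (0.680), Il1b (0.440) and Il6 (0.0590). Neighbours in this order often crossed from library to library. Ccl8 exceeded Ccl11 in 10 of 24 libraries and Tnf exceeded Cxcl10 in 9, so neither pair had a fixed order, whereas Cxcl10 exceeded Cxcl1 in 23 and Cxcl14 exceeded Ccl7 in 22. Il6 was close to absent. Its count was at most 9 in any library and 63 over all 24, and 3 counts, the limit taken for a gene at 0, equal 0.136 to 0.236 CPM.

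Libraries held 13,254,536 to 17,766,546 counts on chow and 16,373,731 to 22,748,132 on HFD, and they differed in the markers of cells other than adipocytes. The adipocyte list (8 genes such as Adipoq and Plin1) summed to 11,940 to 49,670 CPM, so adipocyte markers were abundant in every library. The B lymphocyte list of 10 genes, which includes Cd79a and Ms4a1, summed to 714.4 to 1999 CPM in 6 chow libraries (numbers 1 to 4 of WT-Tg, 8 and 11 of D316A-Tg) and to at most 8.543 CPM in the other 6. On HFD it summed to 201.6 to 979.8 CPM in 5 libraries (number 3 of WT-Tg, 7, 8, 9 and 11 of D316A-Tg) and to at most 39.64 CPM in the other 7. These 11 libraries are called lymphocyte-rich below and the other 13 lymphocyte-poor, although the labels say that the lymph node was taken out. Skeletal muscle markers (13 genes such as Ckm and Acta1) summed to 36.06 to 11,710 CPM in WT-Tg against 42.23 to 621.4 CPM in D316A-Tg on chow. Within lymphocyte-poor chow libraries they separated the genotypes, at 1441 and 11,710 CPM in WT-Tg 5 and 6 against 61 to 347.1 CPM in D316A-Tg. Fits of lymphocyte-poor libraries alone therefore compare genotypes of unlike muscle content. On HFD the muscle ranges did not overlap, with 46.21 to 258.9 CPM in WT-Tg against 268.6 to 23,920 CPM in D316A-Tg. In bulk tissue, fewer cells of a type and less RNA per cell cannot be told apart. Prkag1, the gene of the transgenic subunit, ranged from 254.5 to 719.5 CPM over all groups, and since 43.678% of its exon length overlaps another gene it does not check the genotype labels.

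**Figure D1:**
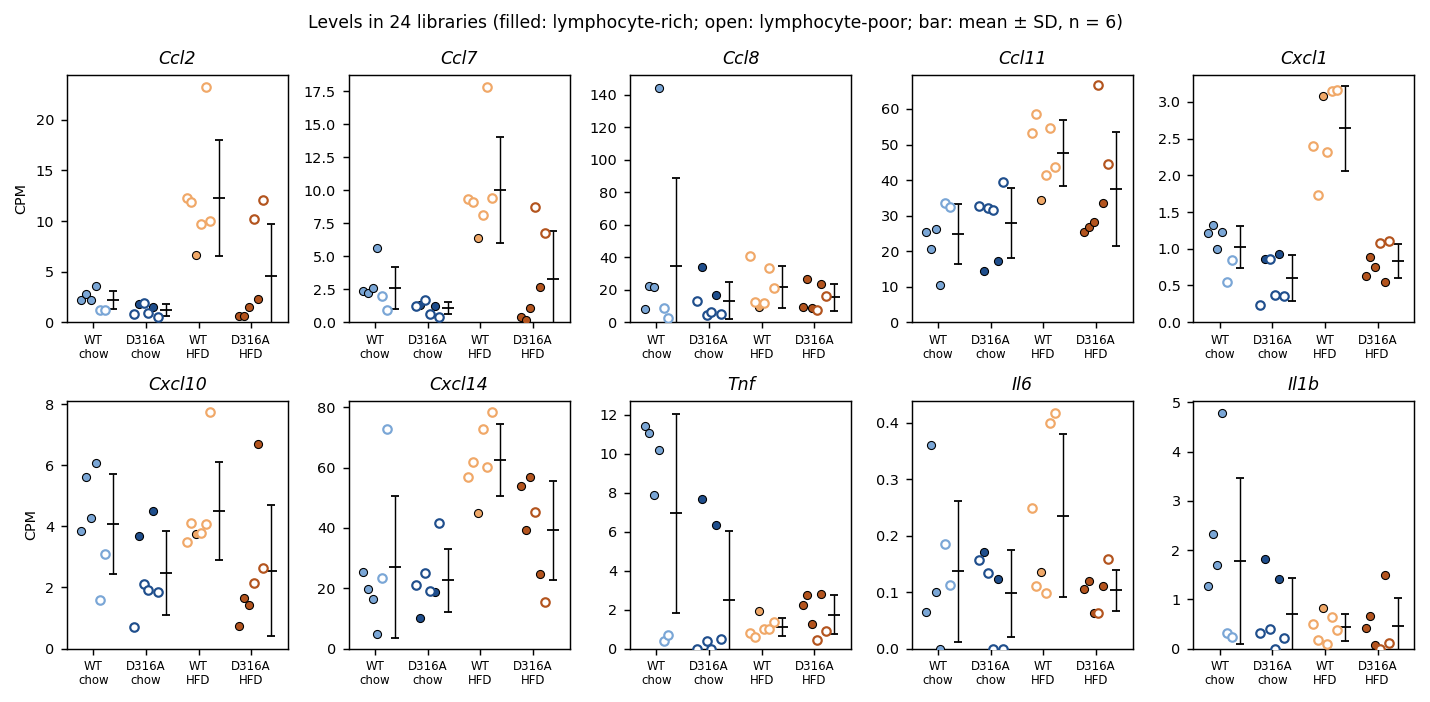
CPM of each of the 10 genes in every library, by group, with filled points for lymphocyte-rich and open points for lymphocyte-poor libraries and bars for the mean ± SD (n = 6), cut off at 0. Cxcl1 in the D316A-Tg HFD libraries (0.550 to 1.10 CPM) lies below all WT-Tg HFD libraries (1.73 to 3.15 CPM), and Tnf on chow splits by lymphocyte class.

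The chow comparison asked how the gain-of-function subunit differed from the wild-type subunit without a dietary load. None of the 10 genes was called on chow, where a call is an adjusted p below 0.05 in edgeR's quasi-likelihood test with Benjamini-Hochberg adjustment over all genes. Of the 9 genes that passed the count filter, 0 were called by edgeR, 2 had an unadjusted p under 0.05 and 1, Ccl7, was called by DESeq2 (adjusted p = 0.0341). In the background of all 15,249 genes tested, 8.54% were called by edgeR and 29.9% had an unadjusted p under 0.05. DESeq2 called 2991 of the same genes. The 9 log2 fold changes had a median of -0.84, against -0.07 over all genes tested, and 8 of them were negative. Of all genes tested, 44.6% had a positive log2 fold change. These signs are not separate observations, since the genes share library depth and cell content.

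On chow, Ccl7, a monocyte chemoattractant, stood at 2.37, 2.22, 2.56, 5.62, 1.97 and 0.962 CPM in WT-Tg libraries 1 to 6 and at 1.26, 1.31, 1.66, 0.591, 1.24 and 0.426 CPM in D316A-Tg libraries 7 to 12. The 5 WT-Tg libraries other than WT-Tg 6 lay above every D316A-Tg library. The log2 fold change was -1.27 (SE 0.43, adjusted p = 0.0806, edgeR), and it was called when WT-Tg 6 was left out (adjusted p = 0.0437). In the lymphocyte-poor libraries alone (2 WT-Tg, 4 D316A-Tg), whose genotypes also differed in muscle markers, the Ccl7 value was -0.57 (adjusted p = 0.544). Ccl2, the main monocyte chemoattractant of fat, averaged 2.20 ± 0.918 CPM (SD, n = 6) in WT-Tg against 1.22 ± 0.577 CPM in D316A-Tg on chow, a difference of -0.84 on the log2 scale (SE 0.38, adjusted p = 0.166, edgeR). The groups overlapped, and in lymphocyte-poor libraries alone the value was -0.26 (adjusted p = 0.768).

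Ccl8 on chow was set largely by a single library. WT-Tg libraries 1 to 6 held 8.45, 22.3, 21.6, 144, 8.66 and 2.55 CPM, and D316A-Tg libraries 7 to 12 held 12.97, 34.1, 4.39, 6.06, 16.9 and 4.83 CPM. WT-Tg 4 was far above all others and also had the largest macrophage marker sum of any library, 2669 CPM over 17 genes. The log2 fold change was -1.39 (SE 0.89, adjusted p = 0.305, edgeR) with that library and 0.06 without it. Ccl11 differed little on chow, averaging 24.8 ± 8.45 CPM in WT-Tg against 27.9 ± 9.89 CPM in D316A-Tg, with a log2 fold change of 0.16 (2 SE either side from -0.45 to 0.78).

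Among the CXC genes on chow, Cxcl1 averaged 1.03 ± 0.289 CPM in WT-Tg against 0.601 ± 0.312 CPM in D316A-Tg (SD, n = 6), a difference of -0.75 on the log2 scale (SE 0.37, adjusted p = 0.192, edgeR). Cxcl10 was at 4.09 ± 1.65 and 2.47 ± 1.39 CPM, a difference of -0.72 on the log2 scale (SE 0.42, adjusted p = 0.264, edgeR). Cxcl14, a chemokine made in skin and fat, was at 27.2 ± 23.5 and 22.6 ± 10.5 CPM. WT-Tg 6, with the largest muscle sum of the chow libraries, held 72.9 CPM of it, and the log2 fold change of -0.27 (SE 0.52) became 0.33 without that library. None of these differences was called, and the groups overlapped for each of the 3 genes.

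Tnf and Il1b on chow were high in the lymphocyte-rich libraries of both genotypes. Tnf was at 11.5, 11.1, 7.87 and 10.2 CPM in WT-Tg 1 to 4 and at 7.68 and 6.37 CPM in D316A-Tg 8 and 11. The other 6 chow libraries held 0 to 0.679 CPM, so the lymphocyte-rich and lymphocyte-poor ranges did not overlap within chow. Il1b ran in the same way, from 1.28 to 4.79 CPM in the rich libraries and from 0 to 0.399 CPM in the poor ones. The D316A-Tg log2 fold changes, -1.46 (SE 1.22, adjusted p = 0.422) for Tnf and -1.32 (SE 0.89, adjusted p = 0.326) for Il1b in edgeR's test, were of the size of their errors. Lymphocyte-rich libraries on chow made up 4 of 6 for WT-Tg but 2 of 6 for D316A-Tg. With a term for these libraries the differences were -0.71 (adjusted p = 0.222) for Tnf and -0.51 (adjusted p = 0.446) for Il1b.

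**Figure D2:**
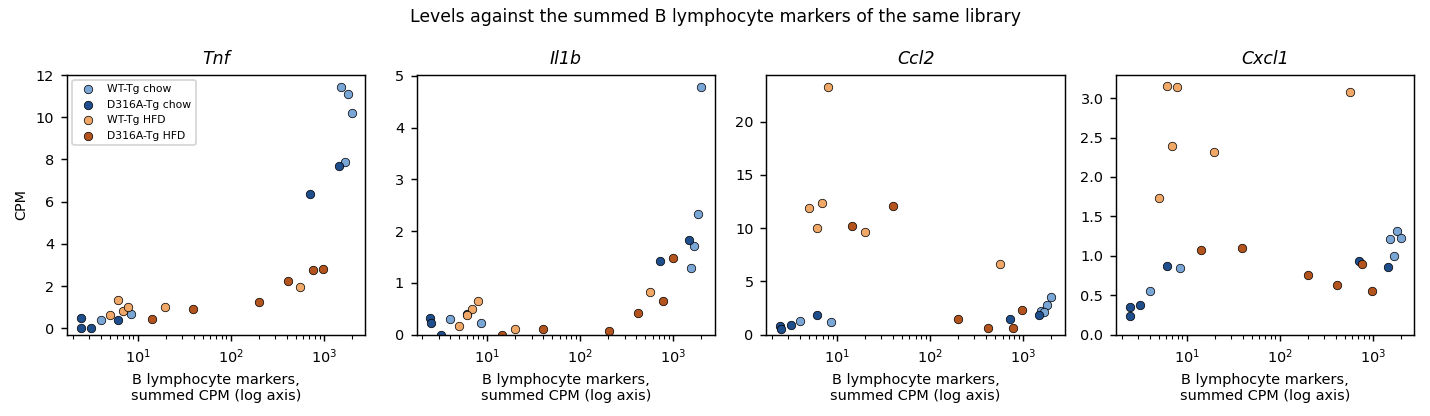
CPM of Tnf, Il1b, Ccl2 and Cxcl1 in each library against the summed CPM of 10 B lymphocyte markers (log axis), coloured by group. Tnf in chow libraries lies at 6.37 CPM or more where the markers are high and at 0.679 CPM or less where they are low, while Cxcl1 in HFD libraries separates by genotype.

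The HFD comparison asked for the same genotype difference after the high-fat diet. Cxcl1 was lower in D316A-Tg and was the 1 gene called of the 8 tested, while 3 had an unadjusted p under 0.05. Of all 14,649 genes tested, 8.47% were called, 3.96% were called lower and 30.7% had an unadjusted p under 0.05. The median log2 fold change of the 8 genes was -0.75, against 0.01 over all genes tested, and 7 of the 8 were negative. A positive log2 fold change was found for 51.2% of all genes tested.

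On HFD, Cxcl1, the neutrophil chemoattractant, was at 2.39, 1.73, 3.08, 2.32, 3.14 and 3.15 CPM in WT-Tg libraries 1 to 6 and at 0.634, 0.894, 0.749, 1.07, 0.550 and 1.10 CPM in D316A-Tg libraries 7 to 12. Every D316A-Tg library was below every WT-Tg library, which held 31 to 68 counts against 10 to 21. How many of all genes separated the groups in this way was not computed. The log2 fold change was -1.67 (SE 0.23, adjusted p = 0.00724, edgeR), a 3.18-fold lower level. It stayed called in each of the 12 fits that left out a library, with log2 fold changes between -1.78 and -1.57, and when lymphocyte-rich libraries had a term of their own (adjusted p = 0.0253). The call was lost in the lymphocyte-poor libraries alone (5 WT-Tg against 2 D316A-Tg, log2 fold change -1.22, adjusted p = 0.225) and with the skeletal muscle score as a covariate (log2 fold change -1.58, SE 0.41, adjusted p = 0.681), settings in which 0 of all genes tested by edgeR were called. The covariate, the mean log2 CPM of the muscle markers, ran from 0.735 to 4.013 in WT-Tg and from 3.746 to 10.193 in D316A-Tg on HFD, so the genotypes met only at WT-Tg 5 (4.013) and D316A-Tg 12 (3.746). Cxcl1 was at 3.14 CPM in the first of these and 1.10 CPM in the other. Neutrophil markers (7 genes) summed to 21.45 to 39.7 CPM in WT-Tg and to 10.18 to 31.68 CPM in D316A-Tg on HFD. The markers did not move one way. By group mean S100a8 (20.75 CPM in WT-Tg against 10.48 CPM in D316A-Tg), Csf3r and Mmp9 were lower in D316A-Tg. S100a9 (0.693 ± 0.616 against 2.72 ± 4.99 CPM, SD), Cxcr2 (0.284 ± 0.551 against 2.33 ± 2.9 CPM), Retnlg and Ly6g were higher there. Retnlg (0.065 against 0.177 CPM) and Ly6g (0 against 0.0264 CPM) lay near or under the limit taken for a gene at 0. Only 3 of the 7 markers passed the count filter on HFD. The part of neutrophils in the Cxcl1 difference was not tested.

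Ccl2 and Ccl7 on HFD split the D316A-Tg group. Ccl2 was at 12.3, 11.9, 6.62, 9.67, 23.3 and 9.97 CPM in WT-Tg 1 to 6 and at 0.581, 0.656, 1.499, 10.2, 2.31 and 12.0 CPM in D316A-Tg 7 to 12. Ccl7 was at 9.32, 9.08, 6.35, 8.14, 17.9 and 9.42 CPM in WT-Tg and at 0.422, 0.179, 1.06, 8.71, 2.70 and 6.78 CPM in D316A-Tg. For both genes D316A-Tg 10 and 12 lay within the WT-Tg range and the other 4 lay below all WT-Tg libraries. Those 4 are the lymphocyte-rich D316A-Tg libraries, and WT-Tg 3, the only rich WT-Tg library on HFD, had the lowest Ccl2 and Ccl7 of its group. On chow the order was the other way. Ccl2 averaged 2.35 CPM in the rich and 1.07 CPM in the poor chow libraries, and Ccl7 2.55 and 1.14 CPM.

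The fitted differences for the pair on HFD were not called. Ccl2 had a difference of -1.44 on the log2 scale (SE 0.71, adjusted p = 0.187, edgeR) and Ccl7 one of -1.60 (SE 0.72, adjusted p = 0.156, edgeR). In lymphocyte-poor libraries alone they were -0.27 (adjusted p = 0.787) and -0.48 (adjusted p = 0.597). Markers of adipocyte progenitors and fibroblasts (10 genes such as Pdgfra and Dcn) moved with them as a sum. They summed to 1187 to 2179 CPM in D316A-Tg 7, 8, 9 and 11, to 4141 and 3196 CPM in D316A-Tg 10 and 12, and to 2988 to 7095 CPM in WT-Tg. The collagen Col3a1 had the highest level in this list, 2916 CPM in WT-Tg against 1181 CPM in D316A-Tg on HFD. Only Dpp4 was higher in D316A-Tg there by group mean (13.2 against 19.82 CPM). Endothelial markers (8 genes) split likewise. They summed to 339.7 to 404.6 CPM in D316A-Tg 7, 8, 9 and 11 and to 533.6 and 654.6 CPM in 10 and 12. Their WT-Tg range was 586.7 to 753 CPM. Macrophage markers summed to 560.7 to 1278 CPM in D316A-Tg and 928.7 to 2467 CPM in WT-Tg on HFD. The part of any of these cell types in the Ccl2 and Ccl7 values was not tested.

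**Figure D3:**
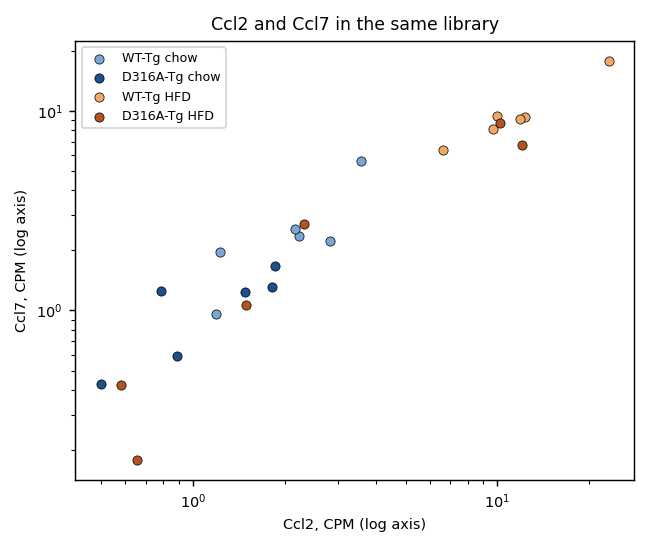
Ccl7 against Ccl2 in each of the 24 libraries, in CPM on log axes, coloured by group. The genes are high in the same libraries over the whole range, from 0.179 CPM of Ccl7 in a D316A-Tg HFD library to 17.9 CPM in a WT-Tg HFD library, with D316A-Tg HFD libraries in both the low and the high part.

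None of the other chemokines was called on HFD with all 12 libraries. Cxcl14 averaged 62.4 ± 11.9 CPM in WT-Tg against 39.2 ± 16.4 CPM in D316A-Tg, a difference of -0.69 on the log2 scale (SE 0.27, adjusted p = 0.119, edgeR). Ccl11 was at 47.7 ± 9.26 and 37.5 ± 16.0 CPM, and Ccl8 at 21.4 ± 12.9 and 15.3 ± 8.30 CPM, with log2 fold changes of -0.36 (2 SE either side from -0.84 to 0.13) and -0.51 (from -1.39 to 0.37). Cxcl10 had a difference of -0.82 on the log2 scale (SE 0.44, adjusted p = 0.223, edgeR). D316A-Tg 11 held 6.72 CPM of Cxcl10 against 0.739 to 2.63 CPM in the other 5 of its group. Without that library the Cxcl10 difference was -1.39 and was called (adjusted p = 0.0436), and with the muscle score as a covariate its sign turned (0.21, adjusted p = 0.95).

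Of the cytokines on HFD, Tnf averaged 1.12 ± 0.476 CPM in WT-Tg against 1.73 ± 1.00 CPM in D316A-Tg, a difference of 0.61 on the log2 scale (SE 0.43, adjusted p = 0.338, edgeR). The 4 lymphocyte-rich D316A-Tg libraries held 1.25 to 2.81 CPM and the poor pair 0.442 and 0.894 CPM. In lymphocyte-poor libraries alone the sign of the Tnf difference turned, to -0.49 (adjusted p = 0.672). Il1b was too low for the count filter on HFD, at 0 to 1.49 CPM, and in a fit without the filter its log2 fold change was 0.04 (SE 0.79). Il6 was at most 0.418 CPM in WT-Tg against 0.158 CPM in D316A-Tg on HFD and was tested in no comparison. Without the filter its D316A-Tg difference on HFD was -1.16 (SE 0.49, adjusted p = 0.185, edgeR).

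**Figure D4:**
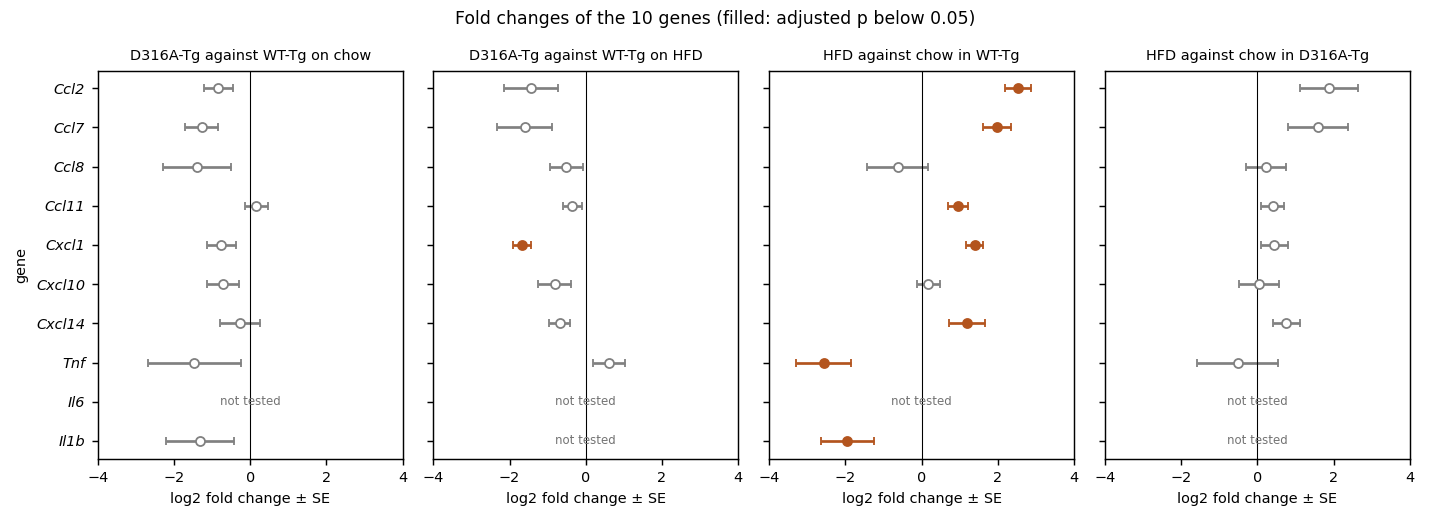
Log2 fold change ± SE of each gene in the genotype comparison on each diet and in the diet comparison of each genotype, from edgeR. Filled points mark adjusted p below 0.05, which were Cxcl1 for genotype on HFD and 7 genes for diet in WT-Tg, and genes under the count filter are marked as not tested.

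Whether the genotype difference itself changed with diet was tested as an interaction over all 24 libraries. Of the 9 genes tested, 0 were called by edgeR, 0 had an unadjusted p under 0.05 and 0 were called by DESeq2. Of all 16,072 genes tested by edgeR, 12.9% were called and 31.7% had an unadjusted p under 0.05. DESeq2 called 1248 of them higher and 1753 lower. Cxcl1 came closest, with a difference of -0.90 on the log2 scale (SE 0.44, adjusted p = 0.16, edgeR) and a 2 SE interval from -1.77 to -0.02, which is narrower than what the test itself allows. The Cxcl1 difference on HFD is therefore not shown to differ from that on chow. For Tnf the interval ran from -0.60 to 4.77 and for Ccl8 from -1.13 to 2.94, so these libraries leave wide room in either direction.

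The diet comparison set the HFD libraries of a genotype against its chow libraries. Diet, age, cohort, count table and base calling version changed together here and cannot be told apart. The chemokines Ccl19 and Ccl21a, which have near-identical copies in the genome, reached at most 0 and 1 counts in any chow library, lymphocyte-rich ones included, but 142 and 2596 counts on HFD, and their calls between diets are not read as changes. In WT-Tg, 7 of the 9 genes tested were called, 5 higher on HFD (Ccl2, Ccl7, Ccl11, Cxcl1 and Cxcl14) and 2 lower (Tnf and Il1b). The background was high, since 62% of all 15,018 genes tested were called, 28.7% higher and 33.3% lower. The median log2 fold change of the 9 genes was 0.95, against -0.06 over all genes tested.

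In WT-Tg, Ccl2 rose from 2.20 ± 0.918 CPM on chow to 12.3 ± 5.75 CPM on HFD (SD, n = 6), a difference of 2.52 on the log2 scale (SE 0.34, adjusted p = 5.64e-05, edgeR). The highest chow library held 3.56 CPM and the lowest HFD library 6.62 CPM, so the groups did not overlap. The share of all genes without overlap was not computed, and 62% of all genes were called here. Ccl7 rose from 2.62 ± 1.58 to 10.03 ± 4.00 CPM, or by 1.98 on the log2 scale (SE 0.37), and Cxcl1 from 1.03 ± 0.289 to 2.64 ± 0.585 CPM, or by 1.39 (SE 0.23), again without overlap. Ccl11 rose from 24.8 ± 8.45 to 47.7 ± 9.26 CPM, where the highest chow library held 33.5 CPM and the lowest HFD library 34.5 CPM. These 4 genes stayed called in all 12 fits that left out a library. They also stayed called in the lymphocyte-poor libraries alone (2 on chow, 5 on HFD), where Ccl2 had a log2 fold change of 3.46 (SE 0.45). Those chow libraries, WT-Tg 5 and 6, had muscle sums of 1441 and 11,710 CPM, against at most 258.9 CPM on HFD. Macrophage markers summed to 603.6 to 2669 CPM on chow and 928.7 to 2467 CPM on HFD in WT-Tg, and progenitor and fibroblast markers to 1620 to 4825 and 2988 to 7095 CPM, and their part in these increases was not tested.

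Other WT-Tg diet calls depended on single libraries or on lymphocyte content. Cxcl14 had a mean of 27.2 ± 23.5 CPM on chow and 62.4 ± 11.9 CPM on HFD, a difference of 1.19 on the log2 scale (SE 0.48, adjusted p = 0.0464, edgeR), and was called in 3 of the 12 fits that left out a library, those without chow 4 (the lowest Cxcl14 library, 4.84 CPM), chow 6 (the highest of chow) or HFD 3. Tnf was lower on HFD, with a difference of -2.57 on the log2 scale (SE 0.71, adjusted p = 0.008, edgeR), and Il1b was lower too, with -1.95 (SE 0.69, adjusted p = 0.0276, edgeR). Tnf and Il1b were at 7.87 CPM or more and 1.28 CPM or more in the 4 lymphocyte-rich WT-Tg libraries on chow and at no more than 0.679 and 0.307 CPM in the other pair, and on HFD 1 of 6 WT-Tg libraries was rich. In the lymphocyte-poor libraries alone (2 on chow, 5 on HFD) the signs turned, to 0.84 (adjusted p = 0.147) for Tnf and 0.42 (adjusted p = 0.665) for Il1b. The Il1b call was also lost without chow 2 or 4 or without HFD 2, 4 or 6, where the highest adjusted p was 0.0853. Ccl8 and Cxcl10 were not called, and Ccl8 turned from -0.63 to 0.80 without chow 4 and to 2.10 (adjusted p = 0.0484) in lymphocyte-poor libraries.

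In D316A-Tg, 0 of the 8 genes tested were called between diets by edgeR, 1 had an unadjusted p under 0.05 and 1, Ccl2, was called by DESeq2 (adjusted p = 0.0318). Of all 14,752 genes tested, 30.8% were called by edgeR and 41.3% had an unadjusted p under 0.05. DESeq2 called 2522 of them higher and 2856 lower. Ccl2 was at 1.22 ± 0.577 CPM on chow and 4.55 ± 5.17 CPM on HFD, a difference of 1.88 on the log2 scale (SE 0.76, adjusted p = 0.0788, edgeR). It was called without D316A-Tg HFD 7 or 8, at a lowest adjusted p of 0.04. In the lymphocyte-poor libraries alone (4 on chow, 2 on HFD), Ccl2 was higher by 3.38 (SE 0.42, adjusted p = 0.000592), Ccl7 by 2.90 (SE 0.47, adjusted p = 0.00196) and Ccl11 by 0.65 (SE 0.17, adjusted p = 0.0164), and these 3 were the genes called, where 7112 of all 15,022 genes were called. Cxcl14 had a log2 fold change of 0.76 (adjusted p = 0.132) and was called without chow 12 (adjusted p = 0.0465). Cxcl1 had a log2 fold change of 0.44 (2 SE either side from -0.27 to 1.15), with 0.601 ± 0.312 CPM on chow and 0.834 ± 0.229 CPM on HFD. The WT-Tg and D316A-Tg diet differences were compared by the interaction above, which called none of the 10.

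Receptors, other ligands and feedback genes of the same pathways were read from gene lists chosen with earlier results of these data known. On chow, where 8.54% of all genes were called, 1 of 15 receptors tested was lower in D316A-Tg, Ackr1, a venular receptor that binds many chemokines without signalling (log2 fold change -0.995, SE 0.27, adjusted p = 0.0449, edgeR). Exons of Cadm3 overlap 25.694% of the Ackr1 exon length, so some of its reads may belong to that gene. Of 19 other chemokines and cytokines tested on chow, 2 were lower, the macrophage growth factor Csf1 (-0.81, SE 0.14) and Cxcl12 (-0.68, SE 0.16), a chemokine that retains Cxcr4-bearing cells. Zfp36, which destabilises Tnf mRNA, was the 1 NF-κB or feedback target of 17 called on chow (-0.60, SE 0.12). The medians of these lists on chow were -0.39, -0.66 and -0.71, against -0.07 over all genes tested. In the interferon-stimulated list 0 of 16 were called by edgeR (1 at an unadjusted p under 0.05, 1 by DESeq2), in the inflammasome and cytokine processing list 0 of 12 (4 and 1) and among macrophage markers 0 of 17 (5 and 0). Of all genes tested on chow, 29.9% had an unadjusted p under 0.05, and DESeq2 called 2991 of 15,249. In the lymphocyte-poor chow libraries (2 WT-Tg, 4 D316A-Tg) the receptor, other chemokine, NF-κB, inflammasome and macrophage lists had 1, 3, 1, 1 and 1 members lower, where 2305 of all 15,064 genes were called.

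On HFD, 4 of 14 receptors tested were called, 1 higher and 3 lower, where 8.47% of all genes were called. Skeletal muscle markers were higher in D316A-Tg for 13 of 13 genes, and with the muscle score as a covariate 0 of all genes were called by edgeR, so none of the calls on HFD named here held in that fit. Il6ra, the Il6 receptor chain, was higher in D316A-Tg (log2 fold change 0.84, SE 0.16), and Tnfrsf1a, the main Tnf receptor (-0.58, SE 0.11), and Ackr1 (-0.93, SE 0.20) were among those lower. Of 17 NF-κB and feedback targets, Lcn2, an acute-phase protein of fat, was lower (-2.16, SE 0.51), and Nfkbia, the inhibitor of NF-κB (0.62, SE 0.17), and Zfp36 (0.56, SE 0.15) were higher, so the called members did not move one way. Cd14 (-1.14, SE 0.26), a coreceptor for endotoxin, and Casp1 (-0.81, SE 0.21), which cleaves the Il1b precursor, were lower among 12 inflammasome and processing genes. Among macrophage markers 5 of 17 were lower, including Folr2 (-1.71), C1qa (-1.10), Mrc1 (-1.32) and C1qc (-1.12), and the list median was -1.12 against 0.01 over all genes tested. Exons of Gm10602 on the other strand overlap 63.066% of the Folr2 exon length, so some of its reads may belong to that gene. In the other chemokine and interferon lists 0 of 20 and 0 of 16 were called by edgeR (4 and 1 at an unadjusted p under 0.05, 2 and 0 by DESeq2). Of all genes tested on HFD, 30.7% had an unadjusted p under 0.05, and DESeq2 called 2794 of 14,649. In the lymphocyte-poor HFD libraries, where 0 of all genes were called by edgeR, 5, 5, 4 and 2 members of the receptor, NF-κB, inflammasome and macrophage lists had an unadjusted p under 0.05. DESeq2 was not run on these lists in that subset, and the share of all genes under that unadjusted p was not computed there.

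The interaction test called 4 of 17 NF-κB and feedback targets, 1 of 12 inflammasome and processing genes and, by edgeR, 0 of 15 receptors (2 at an unadjusted p under 0.05, 1 by DESeq2), where 12.9% of all genes were called and 31.7% had an unadjusted p under 0.05. Zfp36 (1.18 on the log2 scale, SE 0.20, adjusted p = 0.00277, edgeR), Nfkbia (0.95) and Nfkb1 (1.17), the precursor of the NF-κB p50 subunit, had a more positive D316A-Tg difference on HFD than on chow. Lcn2 (-4.07, SE 1.04) and Cd14 (-1.75, SE 0.38) had a more negative one. DESeq2 called 1248 of all 16,072 genes higher and 1753 lower in the interaction. In lymphocyte-poor libraries alone 0 of 17 NF-κB and feedback targets were called by edgeR in this test, with 2 at an unadjusted p under 0.05, and DESeq2 was not run there.

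Between diets in WT-Tg, 13 of 17 NF-κB and feedback targets were called, 3 higher and 10 lower, where 62% of all genes were called, 28.7% higher and 33.3% lower. Zfp36 (-0.65), Nfkbia (-1.17) and Nfkb1 (-1.11) were among those lower. Interferon-stimulated genes had 8 of 16 lower, among them Stat2 (-1.17), Irf1 (-1.53) and Irf7 (-1.43). Other chemokines had 2 of 19 higher and 8 lower, with Cx3cl1 (-0.84), Cxcl12 (-0.56) and Il33 (-1.90) lower and Ccl9 (1.76) higher. Among receptors, Tnfrsf1a (0.83) was higher, and Cxcr3 (-2.32), the Cxcl10 receptor of T cells, and Il1r2 (-0.93), a decoy receptor for Il1b, were lower. Macrophage markers had 7 of 17 higher, such as Adgre1 (2.03) and Mrc1 (1.40), and Timd4 lower (-3.65). Of 12 inflammasome and processing genes Tlr4 was higher (1.40), and Gsdmd (-1.86), Myd88 (-0.64) and Aim2 (-2.59) were lower. In the lymphocyte-poor libraries alone the counts were 5 higher and 3 lower of 17 for NF-κB targets, 4 lower of 16 for interferon genes, 1 higher and 3 lower of 21 for other chemokines, and 8 higher of 17 for macrophage markers, where 4073 of all 15,750 genes were called higher and 4002 lower. In the same libraries 5 of 12 inflammasome and processing genes were higher and 1 lower, and 6 of 15 receptors were higher and 1 lower. There the NF-κB and inflammasome lists no longer had more members lower than higher.

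Between diets in D316A-Tg, 2 of 17 NF-κB and feedback targets, 3 of 16 interferon genes, 4 of 12 inflammasome and processing genes and 1 of 15 receptors were called, where 30.8% of all genes were called. Zfp36 (0.47, SE 0.16) was higher, Tgfb1 was higher (1.15, SE 0.38) among 18 other chemokines and cytokines, where the other call was Ccl21a, and Il1r2 was lower (-1.55, SE 0.51). The interferon genes called were all lower, among them Irf7 (-0.82) and Irf1 (-1.03). Tlr4 (0.96), the endotoxin receptor, was higher, and Cd14 (-1.21), Myd88 (-0.46) and Casp4 (-0.82) were lower. Macrophage markers had 0 of 17 called by edgeR (2 at an unadjusted p under 0.05, 2 by DESeq2) in all D316A-Tg libraries. Of all 14,752 genes tested there, 41.3% had an unadjusted p under 0.05, and DESeq2 called 2522 higher and 2856 lower. In the lymphocyte-poor D316A-Tg libraries 9 of 17 macrophage markers were higher, where 3427 of all 15,022 genes were called higher and 3685 lower. In that subset 4 of 12 inflammasome and processing genes were higher and 3 lower, and 4 of 14 receptors were higher and 1 lower. NF-κB targets had 3 of 17 higher there, and interferon genes 1 of 16 higher and 3 lower.

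Correlations between the genes other than Il6 ranged from -0.805 to 0.935 over the 24 libraries. They are of log2 CPM after subtracting each group's mean, are given as descriptions, and share library depth and cell content. Ccl2 and Ccl7, neighbours on chromosome 11, had the highest Pearson r among the 36 pairs of the 9 genes measured above the filter, 0.935, and 0.777 in the 13 lymphocyte-poor libraries. Ccl8, in the same run, had an r of 0.265 with Ccl2 and 0.279 with Ccl7, and Ccl11 one of 0.186 and 0.187. Tnf and Il1b had an r of 0.824, which was 0.420 in lymphocyte-poor libraries. Ccl11 ran opposite to Tnf (-0.735) and Il1b (-0.726), and these values were -0.078 and 0.047 in lymphocyte-poor libraries. Ccl8 and Cxcl14 were opposed in both sets, at -0.805 and -0.679.

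The genes most like each of the 9 were ranked by the same measure among 13,489 genes outside the 10. Predicted or clone-named genes, pseudogenes, antigen receptor segments and mitochondrial genome transcripts were left out too. The value in the 13 lymphocyte-poor libraries is given second. Ccl2 was nearest to Ubd (0.897 and 0.263) and Man2b2 (0.894 and 0.521), and Ccl7 to Spg11 (0.842 and 0.419) and Trim30d (0.826 and 0.638), and all 4 values were lower in the smaller set. Ccl8 was nearest to the complement regulator Cfp (0.911 and 0.846) and to Csf3r (0.906 and 0.825), the receptor for granulocyte colony-stimulating factor. Ccl11 was nearest to Nrep (0.899 and 0.783) and Itgbl1 (0.883 and 0.448). Cxcl1 was nearest to Prdm1 (0.824 and 0.782) and Prpf18 (0.811 and 0.933), Cxcl10 to Parp14 (0.833 and 0.538) and Ap3m2 (0.83 and 0.805), and Cxcl14 to Aqp11 (0.886 and 0.708) and Zfp229 (0.845 and 0.773). Tnf was nearest to Gimap8 (0.975 and 0.857), a GTPase of lymphocytes, and Zc3h12d (0.965 and 0.688), and Il1b to Cdca7 (0.936 and 0.934) and Rassf2 (0.932 and 0.772).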

How the data were processed

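Gene counts were deposited as 1 table for the chow and 1 for the HFD libraries, as whole-number counts per gene that were not normalized. Reads were aligned with STAR 2.4.1 to mm10, per the submitters' processing notes. How reads were counted into genes (tool, annotation, strand) is not given in the sources used here. Libraries were grouped by their labels and hold 13,254,536 to 22,748,132 counts each. The tables were joined by gene identifier, with 1004 identifiers in the chow table only and 470 in the HFD table only. Comparisons used edgeR 4.0.16 in R 4.3.3 (TMM scaling, filterByExpr with a minimum count of 10, robust quasi-likelihood F test, Benjamini-Hochberg adjustment over all genes tested, called below 0.05). CPM was scaled by TMM over all 24 libraries, and log2 CPM used a prior count of 2. RPKM divided by GENCODE M21 exon length. The fits were tested on simulated data. Alternatives were RLE scaling, DESeq2 1.42.0, no filter, a term for lymphocyte-rich libraries, lymphocyte-poor libraries alone, a skeletal muscle covariate, a replicate block, a single fit of all 24 libraries and leaving out each library. Lymphocyte-rich libraries were set by the widest gap in mean log2 CPM of the B lymphocyte markers within each diet. The 10 genes and the gene lists were chosen with earlier results of these data known. Named list genes are up to 4 called genes per list and comparison with the lowest adjusted p. The named similar genes are the 2 outside the 10 with the highest correlation. Some list genes that the rule selects are not reported here. Protein sequences were not used here.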

Additional observations from a re-analysis of the deposited data

Results flagged for a closer look

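Cxcl10 was far higher in the WT-Tg HFD library 6 than in the other 5 libraries of its group. It stood at 7.75 CPM there and at 3.49 to 4.12 CPM in the others. On the log2 CPM scale, which the screen used, the gap to the nearest library was 0.793 of the group's range. Of 40 groups screened (10 genes in 4 groups) this was the 1 so marked, and chance alone marks about 2.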

How the results depend on the processing

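On chow the 1303 calls became 2991 with DESeq2, 524 with no filter, 4412 with the lymphocyte-rich term, 2305 in lymphocyte-poor libraries, 241 with the muscle covariate and 3615 in a single fit of all libraries, and ranged from 140 (without D316A-Tg 7) to 3360 (without D316A-Tg 8). On HFD the 1241 became 2794 with DESeq2, 795 with no filter, 79 with the lymphocyte-rich term, 0 in lymphocyte-poor libraries and 0 with the muscle covariate, and ranged from 326 (without WT-Tg 6) to 3919 (without D316A-Tg 12). The interaction's 2080 became 1037 with the lymphocyte-rich term and 272 with the muscle covariate, and ranged from 1368 to 4304. The diet calls in D316A-Tg, 4546, became 7112 in lymphocyte-poor libraries and 2142 with the muscle covariate, and ranged from 3598 to 5129. Those in WT-Tg ranged from 8613 to 10263. The cause of these moves was not tested.

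Of the 10 genes, 1 was called on chow with DESeq2 and 0 to 1 when a library was left out. On HFD 0 were called in lymphocyte-poor libraries and 0 with the muscle covariate, and 1 to 2 when a library was left out. The interaction called 0 in every fit that left out a library. Between diets in WT-Tg the lymphocyte-rich term left 4, and leaving out a library 5 to 7. With that term 4044 of all 15,018 genes were called higher and 4422 lower. Between diets in D316A-Tg 1 was called with DESeq2, 1 with the lymphocyte-rich term and 3 in lymphocyte-poor libraries, and 0 to 1 when a library was left out. Of all 14,752 genes, DESeq2 called 2522 higher and 2856 lower, and the fit with the lymphocyte-rich term 3205 higher and 2986 lower.

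Signs turned mostly for genes that were not called. On chow, Ccl8 became 0.33 in lymphocyte-poor libraries, Ccl11 -0.18 with the lymphocyte-rich term and Cxcl14 0.10 with the muscle covariate. On HFD, Ccl11 became 0.15 in lymphocyte-poor libraries, Cxcl10 0.21 with the muscle covariate, and Tnf -0.22 with the lymphocyte-rich term and -0.49 in lymphocyte-poor libraries. In the interaction the lymphocyte-rich term gave 0.0697 for Ccl7, -0.44 for Ccl8, 0.17 for Ccl11, 0.17 for Cxcl14, -0.25 for Tnf and -1.12 for Il1b, lymphocyte-poor libraries gave 0.0378 for Ccl7, -1.39 for Ccl8 and 0.0654 for Ccl11, and the muscle covariate gave 0.36 for Cxcl10. Between diets in WT-Tg, Ccl8 became 0.87 with the lymphocyte-rich term and 2.10 in lymphocyte-poor libraries, where Tnf became 0.84 and Il1b 0.42. In D316A-Tg, Cxcl10 became -0.0745 with the lymphocyte-rich term. Fits that left out a library turned the sign of some genes not called. On chow Ccl8 ranged from -1.94 to 0.0559 and Cxcl14 from -0.56 to 0.33. In the interaction Ccl8 ranged from -0.54 to 1.45 and Cxcl10 from -0.66 to 0.16. Between diets in WT-Tg, Ccl8 ranged from -0.90 to 0.80 and Cxcl10 from -0.0251 to 0.31. In D316A-Tg, Ccl8 ranged from -0.0057 to 0.72, Cxcl10 from -0.51 to 0.29 and Tnf from -0.80 to 0.21.

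Replicate numbers are shared across diets only and did not pair the libraries: same-numbered libraries correlated at -0.504 to 0.602, and 1 of 12 correlated best with its own number. With the number as a replicate block, 5 of the 10 genes and 8380 of all genes were called in WT-Tg, and 0 and 4406 in D316A-Tg. Under the block Ccl8 was 0.39 in WT-Tg, and Cxcl10 and Tnf were -0.0783 and 0.77 in D316A-Tg. Tnf and Il1b in WT-Tg had adjusted p-values of 0.0932 and 0.165 under it. Low counts limit Il6, Il1b and Cxcl1, and counting intervals would not cover differences between libraries.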
